A study of Mus musculus and Homo sapiens with 352 samples.

Results

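The antigen receptor loci are the 6 stretches of the mouse genome that hold the gene segments of antibodies and T cell receptors, and they are described here by where the architectural protein CTCF was bound and by which of those sites were joined in space. Members were all CTCF peaks and all interaction anchors that overlapped by 1 bp or more 1 of 6 windows given in mm9 coordinates. The immunoglobulin (Ig) windows were Igh, the heavy chain locus, on chromosome 12 from 114300000 to 117300000, Igk, the kappa light chain locus, on chromosome 6 from 67500000 to 70700000, and Igl, the lambda light chain locus, on chromosome 16 from 19000000 to 19300000. The T cell receptor (TCR) windows were Tcra/d, which holds the alpha and the delta chain segments, on chromosome 14 from 53000000 to 54900000, Tcrb on chromosome 6 from 40800000 to 41550000, and Tcrg on chromosome 13 from 19250000 to 19470000. The rule used positions only, so no measured value chose the members. It found 458 of the 125439 regions in the 4 lists, made up of 124 of 39438 CH12 peaks, 277 of 59978 B cell peaks, 25 of 13547 anchors of the wild-type interaction list and 32 of 12476 anchors of the mutant interaction list.

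CH12 is an established mouse B cell lymphoma line. Its CTCF peak list carries the wild-type name (3 CTCF ChIP-seq libraries of wild-type CH12 cells are labelled), and the interaction lists come from CTCF ChIA-PET, in which DNA ends held together by CTCF-bound chromatin are ligated and sequenced as pairs. There was 1 ChIA-PET library from wild-type (WT) CH12 cells and 1 from CH12 cells of genotype CTCFmZF9to11, whose name refers to zinc fingers 9 to 11 of CTCF. How many clones the mutant cells came from was not stated in the labels. The B cell list is named for resting and activated B cells, and the labels do not say which libraries or animals entered it. They give 2 CTCF libraries of wild-type B cells from spleen that had been activated for 24 h. No expression table was used, so the labelled cell types were not checked against markers.

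Antigen receptor genes are assembled in developing lymphocytes by V(D)J recombination, which joins 1 variable (V), in some chains 1 diversity (D), and 1 joining (J) segment and removes or inverts the DNA between them. B cells assemble the Ig loci and T cells the TCR loci, while the other class is normally left in its germline order. CTCF binds DNA through its zinc fingers and halts loop extrusion by cohesin, so that pairs of CTCF sites become the bases of chromatin loops, and in the receptor loci such loops bring distant V segments near the D and J segments. In RefSeq's GRCm38.p6 annotation, used here for names and order only, the heavy chain genes run from Igha, a constant region, at the low-coordinate end to Ighv1-86 at the high-coordinate end, the kappa genes from the V segments to Igkc, the lambda genes from Iglc1 to Iglv2, the alpha genes from Trav1 to Trac, the beta genes from Trbv1 to Trbv31 and the gamma genes from Trgv7 to Trgc4. Past Igkc the order goes on with Rpia, past Trac with Dad1 and past Trgc4 with Stard3nl, genes that belong to no receptor. Distances below are counted from the low-coordinate end of each window. The constant genes of Igh thus lie toward the start of its window and those of Igk and Tcra/d toward the end of theirs. How much of each window lies outside the receptor genes was not placed in mm9.

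The B cell list held more CTCF peaks than the CH12 list at every locus but Tcrg. The B cell list held 124 peaks in Igh, 76 in Igk, 8 in Igl, 47 in Tcra/d, 16 in Tcrb and 6 in Tcrg, and the CH12 list held 44, 32, 5, 33, 4 and 6. There were 2.57 B cell peaks for each CH12 peak in the Ig windows and 1.605 in the TCR windows, beside 1.52 over the rest of the lists. Igh was the densest Ig window in the B cell list, at 41.3 peaks per Mb (95% Poisson interval 34.4 to 49.3), whereas Igk had 23.8 (18.7 to 29.7). Pooled over their 6.5 Mb, the Ig windows had 32.0 B cell peaks per Mb (27.8 to 36.7), and the TCR windows had 24.0 (18.7 to 30.4) over 2.87 Mb, a ratio of 1.33 (1.01 to 1.77). This rested on Igh: without it the Ig windows had 24.0 peaks per Mb (19.1 to 29.7) and the ratio was 0.998 (0.717 to 1.39). In the CH12 list the order was turned, with 12.5 (9.90 to 15.5) and 14.98 (10.8 to 20.2) peaks per Mb, but the interval of that ratio, 0.832 (0.568 to 1.23), included 1. These and all other intervals cover counting error only, and neighbouring peaks are not independent.

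**Figure D1:**
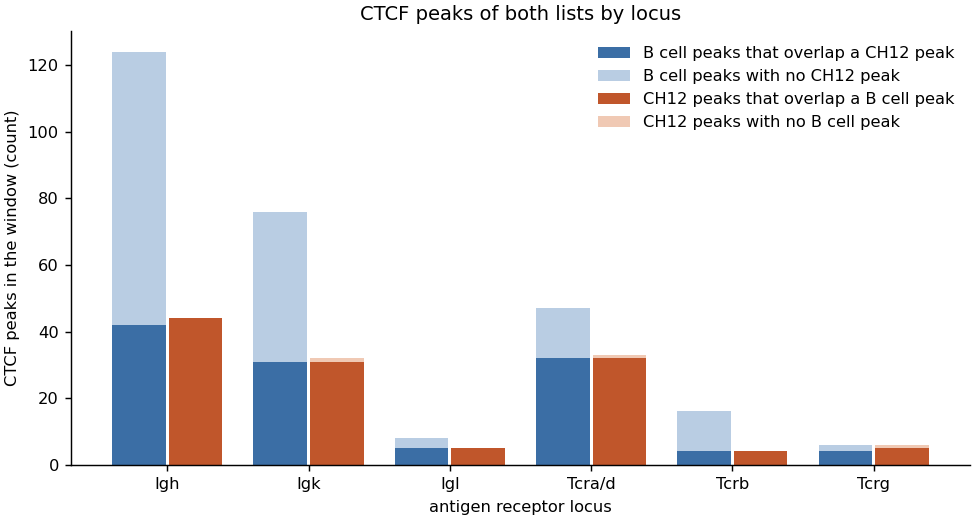
CTCF peaks in each window (count, from 0), with B cell peaks in blue and CH12 peaks in orange, and the pale part of a bar giving the peaks that do not overlap the other list. Igh and Igk have the tallest pale parts, 82 and 45 B cell peaks without a CH12 peak, while only 3 CH12 peaks in all lack a B cell peak.

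Nearly every CH12 peak at the loci was also a B cell peak. Of the 124 CH12 peaks, 121 overlapped the B cell list (97.6%, Wilson 95% interval 93.1 to 99.2), where over the whole CH12 list 89.5% did. Igh, Igl and Tcrb had no exception, and Igk, Tcra/d and Tcrg had 1 each, at 70095081 to 70095551, 54795150 to 54795585 and 19384839 to 19385379. These exceptions were low or middling peaks of the CH12 list, at its percentiles 30.3, 1.61 and 26.9 by score. The Ig share was 98.8% and the TCR share 95.3%, a difference of 3.42 percentage points (Newcombe 95% interval -2.97 to 14.3), while Ig was 9.29 points above the rest of the list (3.85 to 10.4).

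In the other direction the loci parted. Only 78 of the 208 Ig peaks of the B cell list had a CH12 peak (37.5%, 31.2 to 44.2), against 40 of the 69 TCR peaks (58.0%, 46.2 to 68.9) and 58.5% of the whole B cell list. The Ig share was 20.5 points lower than the TCR share (interval of the difference, Ig minus TCR, -33.1 to -6.91) and 21.1 points lower than that of the rest of the list (-27.4 to -14.3), while TCR and the rest differed by -0.587 points (-12.4 to 10.3). The class difference rested on Tcra/d. Without Tcra/d the TCR share was 36.4% (8 of 22), and the difference was 1.14 points (-20.5 to 19.1). Without Igh the Ig share was 42.9%, and the difference of -15.1 points had an interval that reached 0 (-30.0 to 0.765). By locus, the share was 33.9% in Igh (42 of 124), 40.8% in Igk (31 of 76), 62.5% in Igl (5 of 8), 68.1% in Tcra/d (32 of 47), 25.0% in Tcrb (4 of 16) and 66.7% in Tcrg (4 of 6).

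Both classes fell short among strong B cell peaks. Of the B cell peaks at or above the median of the list by q-value, 66 of 108 in the Ig windows (61.1%, 51.7 to 69.8) and 26 of 40 in the TCR windows (65.0%, 49.5 to 77.9) had a CH12 peak, where 86.2% of all such peaks did. The Ig share was 25.2 points and the TCR share 21.4 points below the rest of the list, with intervals of -34.7 to -16.6 and -36.9 to -8.48, and the 2 classes differed from each other by -3.89 points (-19.8 to 13.9). The loci differed within a class, from 4 of 10 strong peaks in Tcrb to 5 of 6 in Igl. Below the median, 12 of 100 Ig peaks had a CH12 peak (12.0%, 7.00 to 19.8) and 14 of 29 TCR peaks (48.3%, 31.4 to 65.6), beside 30.8% of the rest. That TCR share rested on Tcra/d, with 13 of 21, while Tcrb and Tcrg together had 1 of 8. Among the highest 10% of B cell peaks, 95.7% of the whole list had a CH12 peak, and so did 7 of 7 at the loci other than Igh, but in Igh it was 4 of 9.

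**Figure D2:**
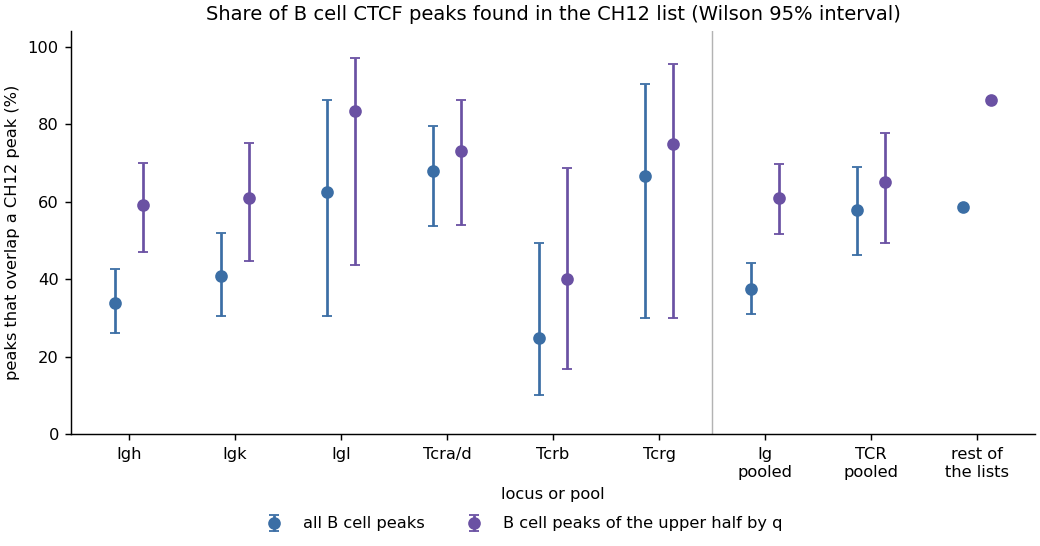
Share of B cell CTCF peaks that overlap a CH12 peak (percent) for each locus, the pooled classes and the rest of the lists; bars are Wilson 95% intervals, blue for all B cell peaks and purple for those in the upper part by q. Ig and TCR sit apart for all peaks (37.5% and 58.0%) but near each other for strong peaks (61.1% and 65.0%), both below the rest (86.4%).

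The low-coordinate part of Igh was mostly shared, and the peaks of the remainder were mostly in the B cell list only. The low-coordinate part holds the constant genes, but neither their first gene nor the start of the V segments was placed in mm9. The split was therefore not matched to a border between constant genes and V segments. Peaks near the start of the window may lie outside the Igh genes. In the first 900 kb of the window, 31 of 41 B cell peaks had a CH12 peak, and in the remaining 2100 kb 11 of 83 did. From 300 to 900 kb alone it was 17 of 20. The CH12 peaks followed the same division, with 33 of 44 in the first 900 kb. Between 952 and 2098 kb the CH12 list held no peak over 1146 kb, while the B cell list held 39. That run of 39 B cell peaks in a row without a CH12 peak, from 115286121 to 116385119, was the longest of the 12500 such runs in the genome, the next longest having 26 peaks. Of its members, 17 lay at or above the median of the B cell list and 4 in its highest 10%, and their median percentile was 47.6. In the last 900 kb, 9 CH12 peaks stood scattered among 41 B cell peaks.

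The strongest sites of the Igh window showed both kinds. CH12 peaks were highest near its start, with a median percentile of 87.2 in the first 300 kb and 43.6 from 300 to 600 kb. Whether the sites near the start lie within the Igh genes was not placed in mm9. The highest B cell peak of the locus, at 115825383 to 115825858 (percentile 99.2, 19.1-fold over background by the authors' value), lay inside the run, and no CH12 peak overlapped it. A second high peak without a CH12 peak, at 114425389 to 114426409 (percentile 97.9, 10.5-fold), lay in the low-coordinate part, between CH12 peaks. The highest CH12 peaks, 3 neighbours with the same score at 114455319 to 114456615, 114457918 to 114460066 and 114460141 to 114461547 (percentile 99.7), formed with 2 more peaks a cluster of 5 within 10 kb, and all of them had B cell peaks, of percentiles 71.8 to 88.9. At the opposite end, the peak at 117287750 to 117288423 was the only CH12 peak past 600 kb that reached the median of its list, at percentile 68.9.

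**Figure D3:**
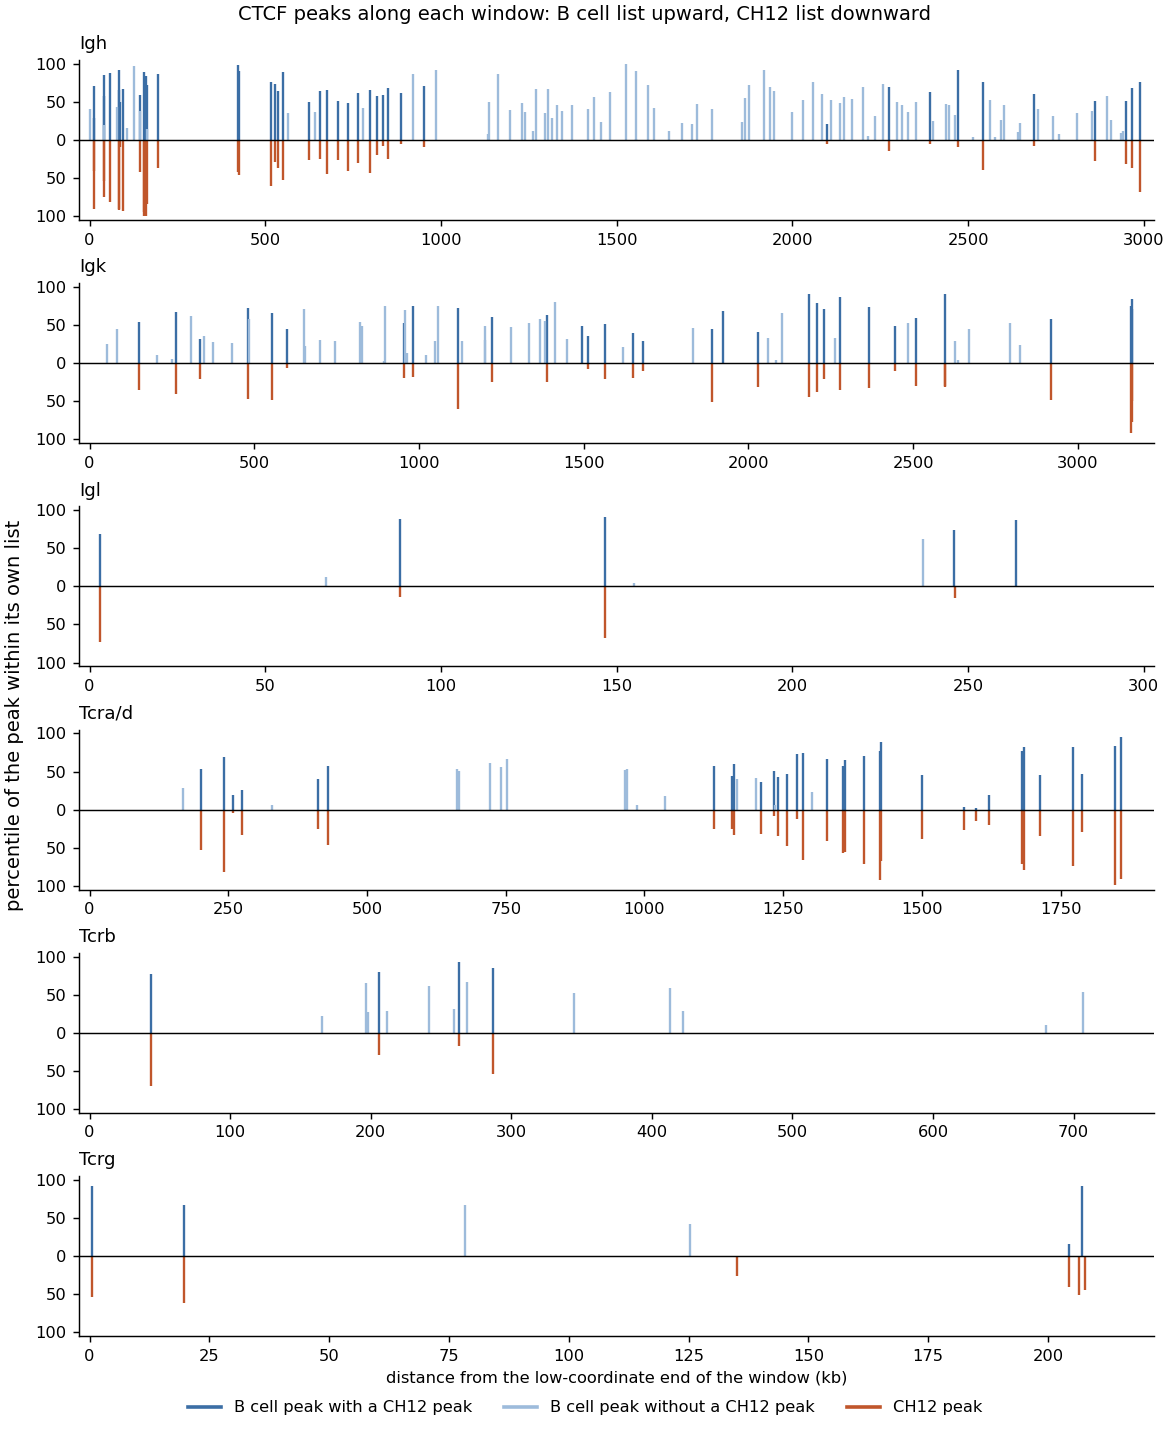
CTCF peaks along each window, from its low-coordinate end (kb); the height of a line is the peak's percentile within its own list, upward for the B cell list (dark where a CH12 peak overlaps, pale where none does) and downward for the CH12 list. In Igh the downward lines stop between 952 and 2098 kb while 39 upward lines go on, and in Tcra/d between 431 and 1125 kb, where 9 upward lines stand.

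Igk had no such edge, and its shared peaks were spread along the whole window. A CH12 peak overlapped 14 of 47 B cell peaks in the first 1600 kb, which hold the V segments farthest from Igkc, and 17 of 29 in the last 1600 kb. In the final 320 kb all 4 B cell peaks were shared. The longest run without a CH12 peak held 9 B cell peaks, from 68151468 to 68396388. Most CH12 peaks of the locus were low, with a median percentile of 30.7, but those toward Igkc were higher: the highest of the locus lay at 70659200 to 70660147 (percentile 91.1), with neighbours at 70662994 to 70663607 (49.8) and 70664025 to 70664726 (77.8). In the B cell list the order differed, the highest peak being at 69682835 to 69683361 in the V part (percentile 90.8), where the CH12 peak had percentile 44.2. The highest B cell peak with no CH12 peak lay at 68913832 to 68914494 (percentile 80.8).

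Igl is the smallest Ig locus and held 5 CH12 peaks, all shared. Their percentiles in the CH12 list ran from 0.402 to 73.6, and those of the matching B cell peaks from 69.3 to 90.9. The lowest, at 19263344 to 19263894, was thus near the bottom of the CH12 list and at percentile 87.0 of the B cell list. Scores of the lists come from different peak calls, and percentiles from lists of different lengths do not measure a change in binding. Of the 3 B cell peaks without a CH12 peak, the highest, at 19236857 to 19237254, had percentile 62.0 and the others 11.8 and 3.98.

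Tcra/d was the TCR locus with the most peaks, and the B cell peaks nearest Trac were all shared. From 1330 kb to the end of the window all 16 B cell peaks had a CH12 peak, while 1 of the 17 CH12 peaks there had no B cell peak. The 15 B cell peaks without one lay before that, 9 of them in 1 run from 53661669 to 54036907, inside a stretch of 694 kb with no CH12 peak. None of these 15 was in the highest 10% of the B cell list, and the highest, at 53751910 to 53752550, had percentile 66.4. The highest CH12 peak of the locus, at 54847143 to 54848530, had percentile 99.7 and the B cell peak there 83.6. The highest B cell peak, at 54858446 to 54859328, had percentile 95.3 and the CH12 peak there 91.3, so the strongest sites of both lists were neighbours at the constant-gene end.

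Tcrb and Tcrg held few peaks. In Tcrb the 4 CH12 peaks lay at 43.7, 206, 263 and 287 kb, and past 287 kb the B cell list had 5 peaks and the CH12 list none. The highest B cell peak, at 41062667 to 41063424 (percentile 92.6), met a low CH12 peak (16.9), and the highest of the 12 without a CH12 peak was at 41068109 to 41068585 (66.4). In Tcrg the shared peaks stood at the 2 ends of the window, and the B cell peaks at 19328200 to 19328650 (67.5) and 19375073 to 19375386 (41.7) between them had no CH12 peak. The B cell peak at 19456129 to 19458091 (91.4) covered 2 CH12 peaks, of percentiles 51.2 and 44.5.

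Peaks of the loci took part in listed interactions at low rates in Igk and Tcra/d, while Igh was near the rest of the list. Of the CH12 peaks, 40 of 124 (32.3%, 24.7 to 40.9) lay at an anchor of either list, against 43.6% of the whole list. The share was 19 of 44 in Igh (43.2%), 5 of 32 in Igk (15.6%), 5 of 5 in Igl, 8 of 33 in Tcra/d (24.2%), 0 of 4 in Tcrb and 3 of 6 in Tcrg. Against the rest of the list, Igk was lower by 28.1 points (-36.8 to -11.9) and Tcra/d by 19.4 points (-30.9 to -2.65), and Igh differed by -0.497 points (-14.0 to 14.1). The Igh share counts the whole window, including peaks near its start that may lie outside the Igh genes. Pooled, Ig had 35.8% (26.2 to 46.7) and TCR 25.6% (14.9 to 40.2), a difference of 10.2 points whose interval, -7.29 to 25.4, included 0. Of the B cell peaks, 13.9% of Ig and 14.5% of TCR peaks lay at an anchor beside 28.8% of the whole list. Here the difference from the rest was -13.5 points in Igh (-18.8 to -6.13), -22.3 in Igk (-26.0 to -14.3) and -11.8 in Tcra/d, whose interval included 0 (-20.0 to 1.31). The share at an anchor went with peak strength. Of the 39 CH12 peaks of the loci at or above the median score, 23 lay at an anchor (59.0%, 43.4 to 72.9), against 66% of all such peaks. Of the 85 below it 17 did (20.0%, 12.9 to 29.7), against 21.3% of all such peaks. Both intervals held the share of the whole list, and most CH12 peaks of the loci were in the weaker set. Each of the 37 anchors held a CH12 peak and a B cell peak. The file headers say that interactions were mapped to CTCF peaks, so an interaction at a site absent from that peak set could not be listed.

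Most anchors of Igh, Igk and Tcra/d lay nearer to the end of the window that holds the constant genes than to the other end. Which of them lie among V segments was not placed in mm9. In Igh 16 of the 17 anchors lay in the first 797 kb and the other at 2988 kb, so that the run without CH12 peaks had none. In Tcra/d the 8 anchors lay between 1361 and 1859 kb, and the 17 CH12 peaks and 32 B cell peaks before them were at no anchor. In Igk 4 of 5 anchors lay in the last 320 kb, and the 2 in Tcrg were neighbours at 204 and 207 kb. The 5 anchors of Igl were its 5 CH12 peaks. Tcrb had no anchor in either list.

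The lists held 57 interactions with at least 1 anchor in a window, 32 in the wild-type library with 283 tags and 49 in the mutant library with 369, a tag being 1 supporting read pair. By locus, Igh had 8 wild-type and 14 mutant interactions, Igk 1 and 6, Igl 5 and 7, Tcra/d 17 and 20, and Tcrg 1 and 2. Both libraries listed 24 of the 57. Wild-type interactions were found again in the mutant list more often than elsewhere, 24 of 32 (75.0%, 57.9 to 86.8) against 46.8% of the whole list. Ig was 31.8 points (5.66 to 45.7) and TCR 25.5 points (2.37 to 40.8) above the rest. In the wild-type list the interactions of the loci had a median of 6 tags beside 4 in the rest, and in the mutant list 5 beside 5, and the part of tag number in the higher share was not tested. Mutant interactions were found in the wild-type list at 49.0% (24 of 49, 35.6 to 62.5), near the 45.7% of the whole list. The interval of the class difference included 0 in both directions, with 78.6% for Ig and 72.2% for TCR in the first (difference 6.35 points, -23.9 to 33.3) and 40.7% and 59.1% in the second (difference -18.4 points, -42.3 to 9.18). When anchors within 10 kb were taken as the same, the second pair was 48.1% and 77.3%, and the interval of its difference no longer held 0 (-29.1 points, -50.6 to -1.77).

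**Figure D4:**
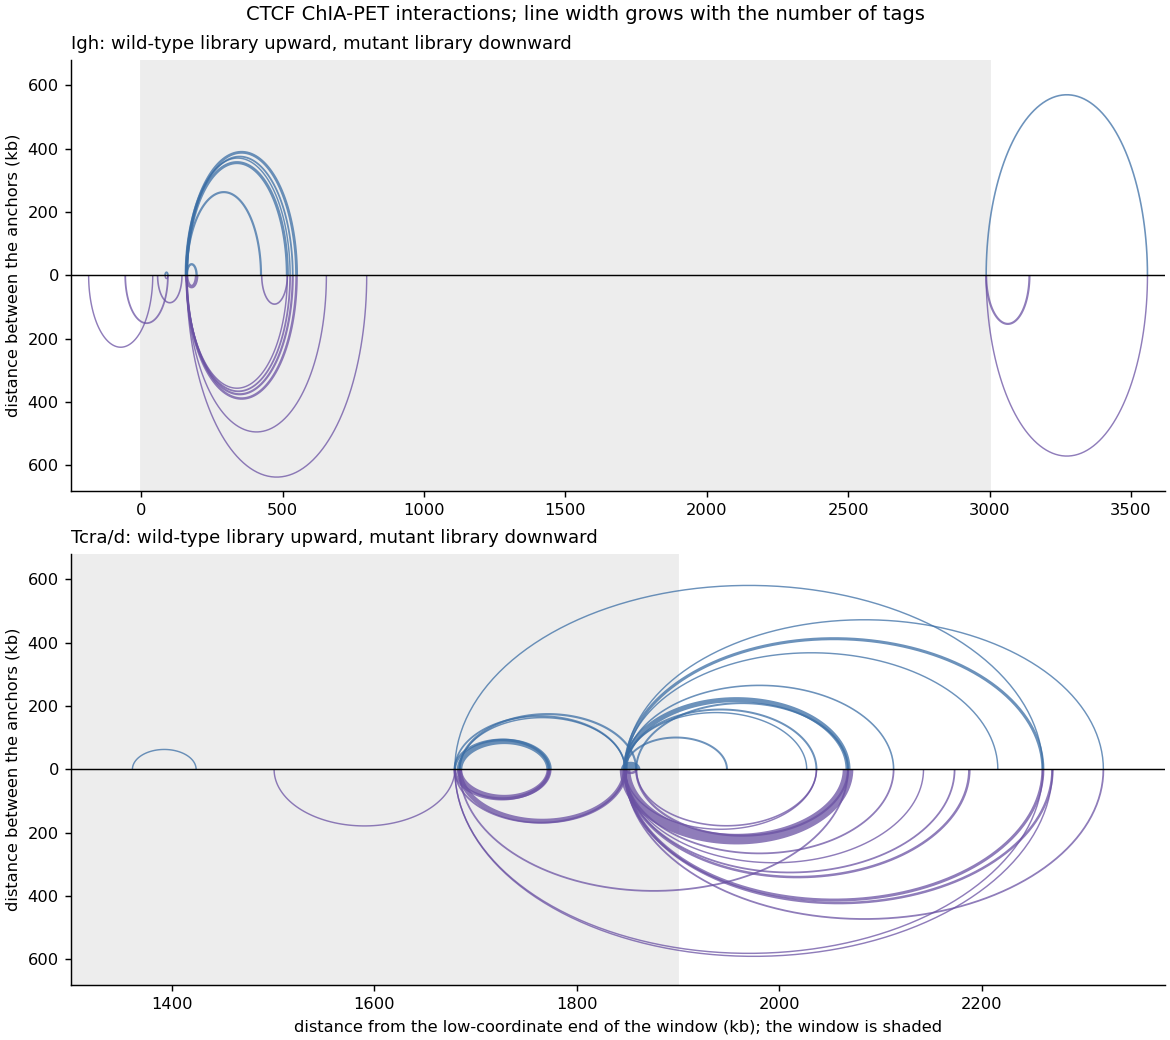
CTCF ChIA-PET interactions of Igh and Tcra/d, from the low-coordinate end of each window (kb), with the height of an arc giving the distance between its anchors (kb), the width growing with its tags, wild type upward and mutant downward. In Igh 1 anchor near 160 kb has 5 wild-type and 7 mutant arcs, all to its right, and no arc has a foot between 797 and 2988 kb; in Tcra/d 1 anchor near 1848 kb has 11 and 12.

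In Igh 1 anchor held 5 of 8 interactions in the wild-type list and 7 of 14 in the mutant list. It lay at 114457918 to 114463025 and covered 3 of the 5 clustered CH12 peaks. Its interactions had 43 tags in the wild-type and 45 in the mutant library, and every partner lay to its right, toward the V segments. The interaction with 114495433 to 114496007 had 8 wild-type and 15 mutant tags, that with 114848800 to 114849857 had 11 and 9, and that with 114835135 to 114836432 had 5 and 7. The partner at 114816100 to 114817199 had 12 wild-type and 3 mutant tags and did not pass the exact binomial test (p = 0.0171, Benjamini-Hochberg adjusted p = 0.401 over all 17954 interactions). The partner at 114723115 to 114723943 had 7 tags and appeared in the wild-type list only. Partners at 114826056 to 114826821 (5 tags), 114954281 to 114955239 (3 tags) and 115096891 to 115097805 (3 tags) appeared in the mutant list only, and the last gave the longest Igh interaction of that list, 637 kb. The first of these mutant-only partners was also listed in the wild-type library, with 3 tags, but joined to the neighbouring anchor at 114455186 to 114456621. At the V end, 117287646 to 117288606 reached out of the window in both libraries, to 117858069 to 117859139 with 4 and 3 tags.

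Tcra/d had the most interactions of the 6 loci, and most of them reached past the constant-gene end of the window. Of its interactions, 10 of 17 in the wild-type and 14 of 20 in the mutant library had their other anchor outside, all at higher coordinates. The anchor at 54847143 to 54848594 took part in most of them, with 11 wild-type partners and 109 tags and 12 mutant partners and 141 tags, and 9 and 10 of these partners lay to its right. No anchor of the genome had more than 12 partners in either list. Its interaction with 55067477 to 55068715 had 23 wild-type and 54 mutant tags, the highest count of the loci in the mutant library (adjusted p = 0.110, exact binomial test). That with 55259869 to 55261349 had 12 tags in each. The longest interaction of the locus joined 54679171 to 54680150 with 55259869 to 55261349 in the wild-type list (581 kb) and with 55269481 to 55270623 in the mutant list (590 kb), with 3 tags each.

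The tags of 2 interactions differed between the libraries, both at this anchor. By the exact binomial test with adjustment 1.18% of all interactions differed, 212 of 17954, and at the loci it was 2 of 57. Of all interactions, 0.707% had more tags in the wild-type and 0.473% more in the mutant library. The test compares 2 libraries, not genotypes. The short interaction with 54858370 to 54859377, across 11.0 kb, had 41 wild-type and 9 mutant tags, a scaled mutant to wild-type ratio of 0.198 (adjusted p = 2.36e-04). The interaction to the left with 54683846 to 54684906, across 163 kb, had 3 and 22 tags, a ratio of 6.62 (adjusted p = 0.0377, and 0.0257 to 0.0420 over the settings tried). In the mutant library the anchor thus had fewer tags with its neighbour and more with a site farther inside the locus. Of the interactions next to these, 54683846 to 54684906 with 54772194 to 54773261 had 25 and 23 tags, and 54679171 to 54680150 with the same partner had 10 and 13. The interaction of 54683846 to 54684906 with 54858370 to 54859377, which links the outer anchors of the 2 interactions that passed, had 7 wild-type tags and was not listed in the mutant library (adjusted p = 0.874). Of the 30 Ig interactions 0 passed this test (smallest adjusted p = 0.401), and the Igh interaction with 12 and 3 tags was the 1 with an unadjusted p under 0.05.

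Igl formed a small mesh. All 5 of its wild-type interactions were also in the mutant list, and none left the window. The outermost anchor, at 19002550 to 19003709, had 3 partners in the wild-type and 4 in the mutant library, and the middle one, at 19145975 to 19147411, had 3 in each. The leading interaction, 19002550 to 19003709 with 19087840 to 19088746, had 14 wild-type and 12 mutant tags, and the next, 19145975 to 19147411 with 19263344 to 19263894, had 11 and 9. The other 3 in both lists had more tags in the mutant library: 19145975 to 19147411 with 19245866 to 19246467 had 6 and 12, and 19002550 to 19003709 had 4 and 9 with 19145975 to 19147411 and 5 and 7 with 19263344 to 19263894. Of the 7 Igl interactions 0 passed the exact binomial test. The 2 interactions listed in the mutant library only, with 4 and 3 tags, joined anchors that the wild-type list already held. The anchor at 19263344 to 19263894 took part in both libraries although its CH12 peak was the lowest of the locus.

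In Igk and Tcrg the lists rested on few interactions. In Igk the single wild-type interaction, with 4 tags, joined 70662802 to 70663607 to 70702167 to 70703100, just outside the window. The mutant list held 6 others with 3 to 6 tags each, 4 of them at 70659049 to 70660460, the anchor over the highest CH12 peak. A further one linked 70663830 to 70664877, the anchor next to the wild-type one, to the same outside partner with 4 tags. The sixth, with 5 tags, ran from 68721430 to 68721964 to that partner across 1981 kb, near the limit of 2 Mb set by the authors. In Tcrg the anchor at 19456059 to 19458165 was joined to 19529665 to 19530738, outside the window, by 21 wild-type and 8 mutant tags (adjusted p = 0.291, exact binomial test), and the mutant list added 3 tags between its neighbour at 19453996 to 19454845 and the same partner.

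**Figure D5:**
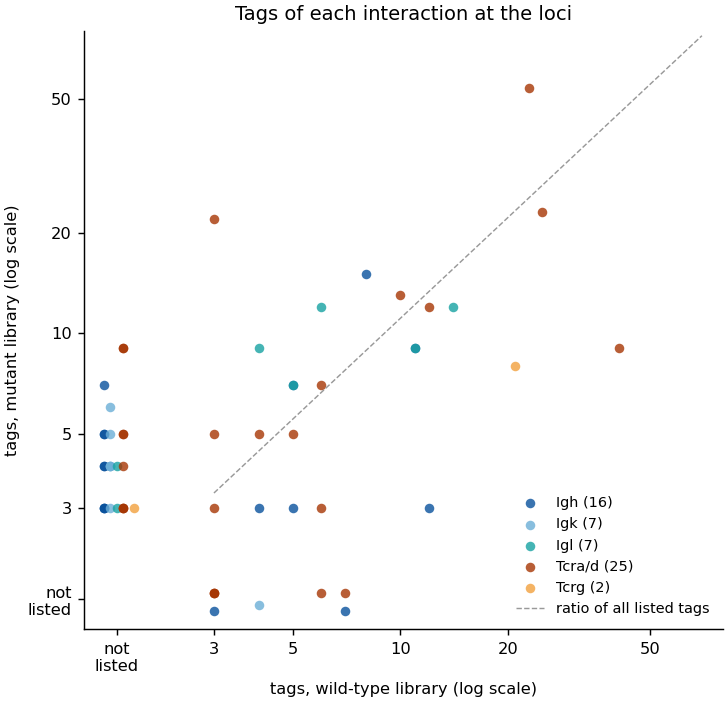
Tags of each of the 57 interactions in the wild-type library (horizontal) and the mutant library (vertical), on log scales, coloured by locus, with interactions absent from a list placed at "not listed" and points of equal tags lying on each other; the dashed line is the ratio of all listed tags. The 2 Tcra/d interactions that passed the test lie far to either side of the line, at 3 and 22 and at 41 and 9 tags.

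Summed over a locus and scaled to all listed tags, mutant over wild-type ratios were 1.21 in Igh (exact 95% interval 0.845 to 1.75), 5.87 in Igk (2.03 to 23.1), 1.26 in Igl (0.827 to 1.95), 1.12 in Tcra/d (0.905 to 1.38) and 0.473 in Tcrg (0.206 to 1.03). The pooled ratio was 1.42 for Ig (1.098 to 1.85) and 1.04 for TCR (0.854 to 1.28). The Ig value rested on Igk, with 4 wild-type and 26 mutant tags: without it the ratio was 1.23 (0.941 to 1.63). With both anchors inside the window it was 1.14 (0.859 to 1.52) for Ig and 0.720 (0.524 to 0.986) for TCR. That TCR value rested on the Tcra/d interaction with 41 and 9 tags: without it 53 wild-type and 66 mutant tags remained, a ratio of 1.12 (0.771 to 1.64). Interactions outside the windows on the same chromosomes had ratios from 0.769 on chromosome 16 to 0.992 on chromosome 13. Scaled to those interactions, the pooled ratio was 1.59 (1.23 to 2.06) for Ig and 1.08 (0.881 to 1.32) for TCR. With 4 or more tags per interaction it was 1.21 (0.925 to 1.59) for Ig and 1.04 (0.838 to 1.28) for TCR. Both of these Ig values include Igk. Tags fall together within interactions, so these intervals may be too narrow.

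The number of partners, the share of interactions staying inside and the spans were also set side by side. The 8 TCR anchors of the wild-type list had 3.13 partners on average and the 17 Ig anchors 1.53, and in the mutant list the means were 3.50 over 8 anchors and 1.88 over 24, beside 1.70 and 1.89 over all anchors. The Tcra/d anchor with 11 and 12 partners enters both TCR means. Of the interactions, 12 of 14 Ig and 7 of 18 TCR interactions of the wild-type list had both anchors in the window, and 18 of 27 and 6 of 22 of the mutant list. These shares depend on where the window edges lie. The same Tcra/d anchor lay at 1848 kb of a window of 1900 kb, and most of its partners lay past that edge. The median span was 202 kb for Ig and 177 kb for TCR in the wild-type list and 153 kb and 215 kb in the mutant list, where the rest of the lists had 130 kb and 152 kb. With 14 to 27 interactions in each, these medians are a description.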

How the data were processed

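CTCF peaks and CTCF ChIA-PET interactions of mouse cells were taken from 4 lists in mm9, the build named in the submitters' processing notes. Those notes also name BWA, bedtools (2.25), SAMtools (1.2), Bowtie (1.1.1) and CASAVA (1.8.2), without saying what each did. Each interaction comes with its count of supporting tags, as the authors deposited it. The file headers state that anchors are CTCF peak calls that carry core motifs, that each interaction has 3 or more tags and that loops span 2 Mb or less. For CH12 cells the authors deposited 1 score per peak. For B cells they deposited, in narrowPeak columns, the fold over background of each peak and its q-value as −log10. Neither peak list comes with caller settings, depth or a statement on pooling in the sources used. Scores served only as ranks within a list.

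From these, with Python 3.11.15, pandas 2.3.3 and scipy 1.17.1, overlaps of 1 bp or more were counted, and Wilson, Newcombe, Poisson and exact binomial intervals (95%) were computed. Each of the 17954 interactions was tested with a two-sided exact binomial test against the ratio of all listed tags (74198 wild-type, 82222 mutant) and adjusted by Benjamini-Hochberg (threshold 0.05). Where a list lacked an interaction, 2 tags were assumed; the true number may be higher if it was dropped for another reason. An interaction belonged to a locus when at least 1 anchor overlapped its window. The code was tested on simulated data. There is 1 library per genotype, so no test compares genotypes.

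Names in each locus were drawn from the highest peak of each list and the highest without a peak in the other, the 3 interactions with most tags, the 3 anchors with most partners, the longest interactions and those that passed the test; where a locus has 10 or fewer members of a kind, all could be named. The other peaks and interactions named, the runs and the stretches between named positions were chosen after their values were seen. Members and lists were chosen with earlier results of these data known. The other samples of the series, mm9 sequence and mm9 annotation were not used here, so motifs, their orientation and genes at anchors are not reported, and the rearranged state of the CH12 alleles was not analysed here. Alternatives were other overlap rules, stronger peaks or interactions, wider windows, both anchors inside, other scalings and loci left out.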

Additional observations from a re-analysis of the deposited data

How the results depend on the processing

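Leaving out a locus or an interaction of 1 class cannot alter the value of the other class. Such values were fixed in advance and add to the count that follows. Of 116 alternative values, 96 stayed inside the reported interval or, for counts, within 1.5 times. Among these, 2 class differences whose interval held 0 changed sign: CH12 peaks found in the B cell list with centres within 100 bp (-0.718 points) and wild-type interactions found in the mutant list with 4 or more tags (-13.5 points). The Ig minus TCR difference in B cell peaks found in CH12 reversed without Tcra/d, to 1.14 points, with TCR at 36.4%; this alternative was added after seeing the data. With peaks at or above the median of both lists, B cell peaks found in CH12 fell to 16.7% for Ig and 45.0% for TCR. The Ig minus TCR difference was -28.3 points (-44.6 to -11.9), so the classes parted when the CH12 peak also had to be strong. The share of the whole list was not computed in this setting. CH12 peaks found in the B cell list were then 100% for TCR, with a difference of -4.76 points (-22.7 to 13.3). Of CH12 peaks at or above the median, 71.4% for Ig and 44.4% for TCR were at an anchor, a difference of 27.0 points. The interval of that difference, -3.58 to 51.7, included 0. With centres within 100 bp, 87.7% of Ig CH12 peaks were in the B cell list. Cutting the B cell list to the length of the CH12 list, also added later, gave 48.4% for Ig and 66.7% for TCR. The difference was then -18.3 points (-32.1 to -2.51). Ranking the B cell list by fold put the median Ig percentile at 62.3. With anchors within 10 kb, 92.9% of wild-type Ig and 77.3% of mutant TCR interactions were found again, and with the Ig share at 48.1% the second gave an Ig minus TCR difference of -29.1 points. With both anchors inside, 83.3% of mutant TCR interactions were found again, the TCR tag ratio was 0.720 (1.12 without 1 interaction, added later) and the median mutant span 128 kb; without Tcra/d the ratio was 0.473. The count of interactions that differed was 84 with shared ones alone and 329 with 1 tag for missing ones; both Tcra/d interactions passed in every setting tried. No paired analysis was possible because there is 1 ChIA-PET library per genotype and the peak lists carry no samples. Checks on motifs and annotation were not run. With 4 wild-type tags, Igk cannot be compared between the libraries with any precision.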
